A study of Mus musculus with 15 samples.

Results

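Axon guidance ligands and their receptors were followed in adult neural stem cells (aNSCs) in which the Trrap gene was deleted. The members were the protein-coding genes of the semaphorin, plexin, neuropilin, Slit, Robo, netrin, Unc5, ephrin and Eph families, with Dcc and Neo1. They were all those found by symbol in the count table, where Ntn3 was not found under its annotated ID. The members came to 71 of the 53801 genes in the count table, 36 of them ligands and 35 receptors. RNA-seq had been carried out on primary aNSC cultures from the subventricular zone of 2-month-old C57BL6/J-129sv mice, grown in suspension with EGF and bFGF. Every mouse carried the Rosa26-CreERT2 transgene, which gives a Cre recombinase in most cells that enters the nucleus only when 4-hydroxytamoxifen (4-OHT) is added. Trrap is a scaffold protein of several histone acetyltransferase complexes. The 3 groups held 5 cultures each. Trrap Fl/+ cultures without treatment and Trrap Fl/+ cultures given 4-OHT, which carry 1 floxed allele, came from the same mice (19, 24, 26, 35 and 36), and Trrap Fl/Fl cultures given 4-OHT, with both alleles floxed, came from mice 27, 28, 29, 37 and 39. The labels gave 5 days of treatment, where the methods of the study describe days with 4-OHT followed by days in fresh medium. No untreated Fl/Fl and no Cre-free 4-OHT cultures were analysed here, so 4-OHT, active Cre and any loss of 1 Trrap allele cannot be told apart in the Fl/+ cultures. The untreated cultures were labelled as without treatment and no solvent control was named, so the solvent cannot be set apart from these. The Fl/Fl and Fl/+ cultures came from different mice, so loss of the second allele and a difference between them from before treatment cannot be told apart either.

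Guidance ligands steer axons and migrating cells by drawing them in or pushing them away. Netrins act through Dcc, Neo1 and the Unc5 receptors, Slits through the Robo receptors, and semaphorins through plexins, with neuropilins as co-receptors for the secreted class 3 semaphorins. Ephrins are bound to the cell surface and signal through Eph receptor tyrosine kinases on the neighbouring cell. In the adult subventricular zone Slits, netrins, semaphorins and ephrins are known for guiding newborn neurons and for setting the division of stem cells.

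The libraries held 25.7 M to 32.2 M counts assigned to genes (M, mega). Levels are given as CPM, a gene's counts divided by the library total in M, with totals scaled by the trimmed mean of M values (TMM). Trrap stood at 193, 214, 184, 179 and 181 CPM in the untreated Fl/+ cultures, at 138, 204, 171, 165 and 142 in Fl/+ with 4-OHT, and at 92.9, 115, 142, 89.2 and 82.8 in Fl/Fl with 4-OHT. It was lower in Fl/Fl than in Fl/+ cultures given 4-OHT (log2 fold change -0.64, SE 0.16, edgeR adjusted p = 0.0115), while Fl/Fl mouse 29, at 142 CPM, lay within the Fl/+ range. Between Fl/+ cultures with and without 4-OHT Trrap was not called (-0.21, SE 0.11, edgeR adjusted p = 0.234), though lower with 4-OHT in 5 of 5 mice. A count over the whole gene does not show how far the floxed segment itself was lost. Fl/Fl mouse 39, labelled female, had Xist at 0.313 CPM and the Y-linked genes at a summed 213 CPM, against its label. Fl/+ mouse 36 with 4-OHT, labelled male, had Xist at 74.7 CPM beside Y-linked genes at 205, and Fl/Fl mouse 29, labelled male, had Y-linked genes at 106 CPM where the other libraries labelled male held 177 to 235. The counts of members, effectors and cofactors are given with and without these 3 libraries. The neural stem cell markers were abundant (10 of 10 above a mean of 1 CPM, summed 7710 to 14100 CPM), while of 8 endothelial genes 3 (Cdh5, Tie1 and Cldn5) and of 6 microglia and macrophage genes 4 (Cx3cr1, Aif1, Ptprc and Tmem119) did not exceed 3 counts in any library. The summed level of the endothelial list was 4.92 to 9.01 CPM and that of the microglial list 0.0698 to 2.01. The pericyte and mesenchymal list, of 6 genes, summed to 71.7 to 122 CPM untreated, 120 to 216 in Fl/+ with 4-OHT and 92.5 to 157 in Fl/Fl with 4-OHT.

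The promoters of 4 members are shown because these genes gave some of the largest falls (Nrp2, Efna4, Efna2) and because Efna3, which lies 10.4 kb from Efna4, moved the other way. The bases run 5′ to 3′ on the gene's strand and end at the base before the start of transcription, from RefSeq (GRCm38.p6). Where GENCODE places the gene's start further upstream than RefSeq, by 32 bases in Nrp2 and 26 in Efna3, the stretch ends before the GENCODE start. Capitals mark the GC box core GGGCGG or its reverse complement CCGCCC, searched on both strands. Sp1, the factor that the study follows, binds GC boxes. Nrp2 lies at chr1:62703067-62703284 (+ strand), Efna4 at chr3:89338029-89338278 (- strand), Efna3 at chr3:89322966-89323189 (- strand) and Efna2 at chr10:80179232-80179481 (+ strand).
Nrp2: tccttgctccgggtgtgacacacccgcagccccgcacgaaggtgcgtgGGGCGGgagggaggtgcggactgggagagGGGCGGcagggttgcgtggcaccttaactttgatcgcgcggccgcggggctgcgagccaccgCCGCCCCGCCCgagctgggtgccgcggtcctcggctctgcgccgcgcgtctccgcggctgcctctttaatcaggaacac
Efna4: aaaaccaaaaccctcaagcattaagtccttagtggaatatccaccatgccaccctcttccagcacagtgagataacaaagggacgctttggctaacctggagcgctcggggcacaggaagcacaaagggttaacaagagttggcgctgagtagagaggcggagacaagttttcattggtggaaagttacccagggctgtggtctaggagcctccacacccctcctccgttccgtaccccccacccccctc
Efna3: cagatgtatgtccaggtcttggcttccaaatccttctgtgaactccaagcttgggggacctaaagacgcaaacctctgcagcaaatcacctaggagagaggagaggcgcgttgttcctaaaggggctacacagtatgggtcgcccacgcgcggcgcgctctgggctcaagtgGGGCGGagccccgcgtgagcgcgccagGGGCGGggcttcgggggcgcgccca
Efna2: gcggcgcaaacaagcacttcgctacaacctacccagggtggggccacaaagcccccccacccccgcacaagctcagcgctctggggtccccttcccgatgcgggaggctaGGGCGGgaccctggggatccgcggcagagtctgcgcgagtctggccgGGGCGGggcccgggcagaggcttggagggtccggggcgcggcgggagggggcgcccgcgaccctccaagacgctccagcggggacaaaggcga
The Nrp2 stretch held 4 cores, of which 2 overlap by 1 base, those of Efna3 and Efna2 held 2 each, and that of Efna4 held none.

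Windows of 300 bases (250 before and 50 after the RefSeq start) were given for 61 of the 71 members, and reach past the stretches shown, so that the Nrp2 window held 5 cores and the Efna3 window 3. A GC box core stood in 44 of 61 windows (72.1%), against 11714 of 32851 windows of all genes (35.7%), which include noncoding genes and several windows for some genes. In 5 members the window lay more than 1000 bases from the GENCODE start. With 1 window for each protein-coding gene, no farther than that from the start, the core stood in 43 of 56 member windows (76.8%) and in 7384 of 14257 windows (51.8%). The counts by call were made without that limit on distance. Among the members lower in Fl/Fl than in Fl/+ cultures with 4-OHT 8 of 10 windows held it, among those higher 4 of 6, and among those not called 27 of 39 (69.2%). The windows of Sema3a, lower, and Ntng2, higher, held no core and lay 271370 and 4906 bases from the GENCODE start. The E-box CACGTG, which reads the same on both strands, stood in 3 of 61 member windows (4.92%) and in 2349 of all 32851 (7.15%), and in the narrower set in 3 of 56 (5.36%) and 1231 of 14257 (8.63%). These counts describe letters in a window and carry no test.

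Before any treatment the cultures expressed ligands and receptors of every family. Levels between genes were compared as CPM per kb of exon (union of all annotated exons), as means ± SD over the 5 untreated Fl/+ cultures. Plxnb2, a receptor for class 4 semaphorins, was highest of the 71 at 47.4 ± 5.05 (SD, n = 5), followed by the ligand Ntn1 at 43.3 ± 6.8. The spread of these values overlapped. Neo1, a netrin and repulsive guidance molecule receptor, stood at 28.7 ± 5.41 per kb, and the other netrin receptors were lower, Unc5a at 3.88 ± 2.24, Unc5b at 1.75 ± 0.443, Dcc at 1.17 ± 0.389, Unc5c at 0.558 ± 0.107 and Unc5d at 0.162 ± 0.0424.

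The semaphorins of highest level were membrane-bound. Sema6d reached 25.7 ± 5.68 CPM per kb, Sema5b 23.5 ± 2.29, Sema6a 22.8 ± 2.3 and Sema4b 20.3 ± 4.77, and these 4 values were within their spread of each other. The most abundant secreted class 3 semaphorin, Sema3a, was at 2.25 ± 0.835 per kb, and its co-receptor Nrp1 was at 2.43 ± 0.225. Slit1 led the Slits with 0.926 ± 0.336 per kb, while their receptor Robo1 stood at 6.6 ± 1.38. Of the ephrins and Ephs, Ephb3 was at 12.5 ± 3.44, Efnb1 at 11.2 ± 1.31, Efna2 at 7.32 ± 0.897 and Epha5 at 6.9 ± 1.07. Sema7a, the GPI-anchored class 7 semaphorin, was at 2.14 ± 0.353.

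**Figure D1:**
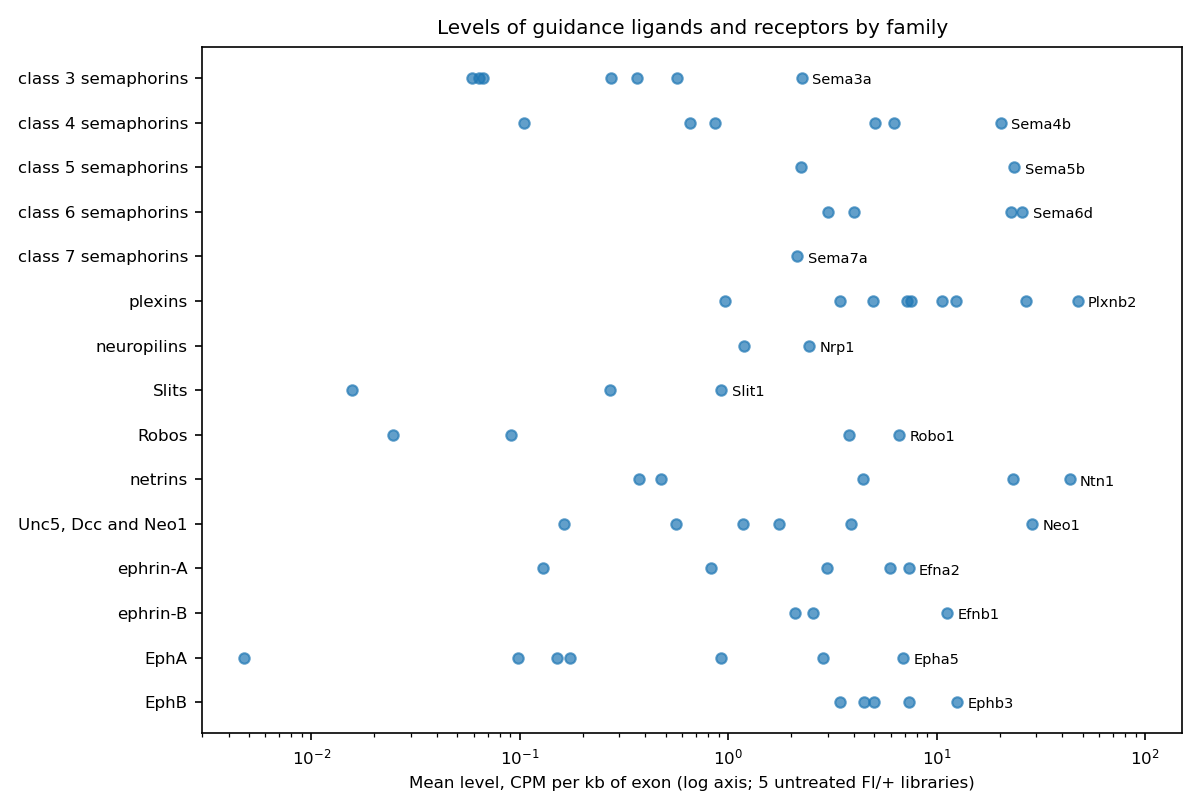
Mean level of each member in the 5 untreated Fl/+ cultures, as CPM per kb of exon on a log axis, with 1 point per gene, 1 row per family and the highest gene of each family named. Plxnb2 (47.4) and Ntn1 (43.3) stand furthest to the right, and Epha1 and Epha6, without a count in these cultures, are not drawn.

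At the other end, Slit3, Robo4, Epha1, Epha6 and Epha8 did not exceed 5, 7, 7, 2 and 3 counts in any of the 15 libraries and passed the filter on low counts in no comparison. Epha1 had no count in the 5 untreated cultures, 1 to 3 in each Fl/+ and 2 to 7 in each Fl/Fl culture with 4-OHT, and with no filter it was called higher in both groups given 4-OHT than in the untreated cultures. Epha6 had no count in any untreated culture. Sema3g passed the filter on low counts in 1 of the 3 comparisons. The members that were tested are therefore 65, 65 and 66 of the 71.

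The first comparison set Fl/Fl against Fl/+ cultures, both with 4-OHT, and asks what differed with both Trrap alleles floxed in place of 1. Of 65 members tested 19 were called (edgeR quasi-likelihood test, Benjamini-Hochberg adjusted p under 0.05), 7 higher and 12 lower. Of all 15036 genes tested 31.7% were called, 16.8% higher and 15.0% lower, so the share among the members (29.2%) was near this background. The median log2 fold change was -0.05 over the members and 0.02 over all genes. Ligands made up 13 of the 19 calls (6 higher and 7 lower of 34 tested) and receptors 6 (1 higher and 5 lower of 31). In 14 members the 5 Fl/Fl values did not overlap the 5 Fl/+ values, against 22.6% of all genes tested. Without Fl/Fl mice 29 and 39 and Fl/+ mouse 36, an alternative chosen after seeing the data, 10 of 66 members were called (3 higher, 7 lower) and 15.5% of all genes. Those 10 were among the 19, with 3 ligands higher and 4 lower, and 3 receptors lower and none higher. The 9 calls lost there were Sema3b (1.06, edgeR adjusted p = 0.0815), Unc5a (0.7, 0.104), Sema4b (0.36, 0.107), Efna3 (0.33, 0.113), Sema3a (-0.65, 0.0848), Ephb4 (-0.45, 0.0605), Plxnc1 (-0.43, 0.168), Ntn4 (-0.41, 0.0767) and Sema6a (-0.22, 0.176), each with its log2 fold change and adjusted p in that fit.

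A pair of receptors and a pair of ephrins fell most. Nrp2, a co-receptor for class 3 semaphorins, stood at 9.23, 10.2, 12.1, 7.21 and 9.73 CPM in the Fl/+ cultures given 4-OHT and at 2.42, 4.55, 3.77, 3.71 and 2.6 in the Fl/Fl cultures. Every Fl/Fl value was below every Fl/+ value. Nrp2 fell by 1.49 on the log2 scale (SE 0.205, edgeR adjusted p = 0.000506), and in untreated Fl/+ cultures it was at 16.6, 18, 19.3, 7.96 and 8.28 CPM. The related Nrp1 was at 29.8 ± 6.08 CPM in Fl/+ and 26.8 ± 2.38 in Fl/Fl with 4-OHT (log2 fold change -0.14, edgeR adjusted p = 0.449).

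Dcc, the receptor through which netrin-1 attracts axons, was at 26.7, 14.8, 21.4, 16.5 and 16.3 CPM in Fl/+ with 4-OHT and at 6.62, 8.8, 3.97, 8.27 and 6.15 in Fl/Fl with 4-OHT. The groups did not overlap, and Dcc fell by 1.49 (SE 0.228, edgeR adjusted p = 0.000898). Its fold was 2.81, the same as that of Nrp2. Neo1, its closest relative among the members, was at 226 ± 23.4 against 224 ± 13.2 CPM, and the log2 fold change of Neo1 lay between -0.05 and 0.04 over the alternatives tried. The Dcc ligand Ntn1 was at 437 ± 104 and 399 ± 19.5 CPM (log2 fold change -0.12, edgeR adjusted p = 0.553).

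The ephrin-A ligands did not move as a family. Efna4 was at 7.5, 7.38, 9.28, 7.83 and 8.22 CPM in Fl/+ and at 4.35, 3.2, 3.02, 4.37 and 3.68 in Fl/Fl with 4-OHT, a log2 fold change of -1.1 (SE 0.148, edgeR adjusted p = 0.000461). Efna2 went from 11.3, 11.7, 15.8, 11.3 and 10.5 CPM to 6.74, 5.74, 6.56, 7.5 and 6.08, a log2 fold change of -0.88 (SE 0.14, edgeR adjusted p = 0.00108). Efna3 went the other way, from 9.94, 11, 10.1, 9.43 and 7.3 CPM to 12.8, 13.1, 13.7, 12.2 and 13.6. Its log2 fold change was 0.47 (SE 0.122, edgeR adjusted p = 0.0138). In none of these 3 ephrins did the groups overlap. The ephrin-B genes and the 6 EphA receptors tested held no call, and of the 5 EphB receptors Ephb4 alone was lower (-0.39, SE 0.104, edgeR adjusted p = 0.0155).

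The largest rises were in semaphorins. Sema6b, a transmembrane ligand for class A plexins, was at 15.9, 17.1, 25.1, 13.8 and 12.2 CPM in Fl/+ with 4-OHT and at 34, 43.7, 42.3, 47.1 and 35.9 in Fl/Fl with 4-OHT. All 5 Fl/Fl cultures exceeded all Fl/+ cultures, and the rise was 1.29 on the log2 scale (SE 0.183, edgeR adjusted p = 0.00061). Sema4f was far lower in level, at 1.93, 0.855, 1.15, 1.39 and 1.13 CPM in Fl/+ and at 2.58, 3.13, 2.29, 4.72 and 3.4 in Fl/Fl, but rose by a like amount (1.33, SE 0.262, edgeR adjusted p = 0.00348). Sema3b, a secreted semaphorin, rose from 1.64 ± 0.589 to 3.47 ± 0.888 CPM (1.1, SE 0.28, edgeR adjusted p = 0.0125). The values of Sema3b did not overlap between these groups.

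Other members of the same classes fell. Sema3a, the classical axon repellent, went from 41.3 ± 11.8 to 25.1 ± 4.81 CPM (-0.7, SE 0.195, edgeR adjusted p = 0.0184) with overlapping groups. Sema4c (-0.5), Sema6d (-0.34) and Sema6a (-0.27) were lower and Sema4b (0.51) was higher. The call of Sema6a was lost without Fl/+ mouse 19 or 35 or Fl/Fl mouse 27 or 29 (-0.26 to -0.23, edgeR adjusted p 0.0566 to 0.0689). So of 19 semaphorins tested 4 were higher and 4 lower (42.1% called, against 31.7% of all genes), of which Sema4f, Sema6b, Sema4c and Sema6d were still called without the 3 libraries that stood apart. Sema4d was not called, and its highest value stood far from the others: the Fl/Fl values were 10.7, 14.1, 16.6, 51.3 and 13.3 CPM, with the highest from mouse 37 (log2 fold change 1.11, edgeR adjusted p = 0.0642, and 0.47 without that library, but called at 1.27 without Fl/Fl mouse 27, edgeR adjusted p = 0.0456). Sema4d was also called at 1.1 with DESeq2 (adjusted p = 0.023) and at 1.1 in the edgeR fit of all 15 libraries (adjusted p = 0.0446). Sema7a was likewise highest in Fl/Fl mouse 37 (27.4 CPM against 7.98 to 12 in the other Fl/Fl cultures) and was called lower without it (-0.76, edgeR adjusted p = 0.0223, against -0.28 and 0.561 with it). The same culture held the myelin genes Mbp at 1010 CPM and Mag at 151, where the other Fl/Fl cultures held 81 to 154 and 7.36 to 15.4. The part of this in Sema4d and Sema7a was not tested.

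The remaining calls were in netrins, an Unc5 receptor and plexins. Ntng2, a membrane-anchored netrin relative, rose from 16 ± 2.41 to 28.4 ± 4.34 CPM (0.85, SE 0.134, edgeR adjusted p = 0.00109), where 14% of its exon bases also belong to a noncoding gene on the same strand. Unc5a, a repulsive netrin receptor, rose by 0.75 (SE 0.251, edgeR adjusted p = 0.0415), with overlapping groups. That call was lost in 10 of 18 alternatives, among them the fits without Fl/+ mouse 19, 24 or 26 or Fl/Fl mouse 27, 28, 37 or 39 (0.54 to 0.79, edgeR adjusted p 0.0532 to 0.105). Plxna3 (-0.47, SE 0.0731, edgeR adjusted p = 0.00097) and Plxnc1 (-0.5, SE 0.148, edgeR adjusted p = 0.0256), receptors for class 3 and class 7 semaphorins, and the ligand Ntn4 (-0.36, SE 0.113, edgeR adjusted p = 0.0335) were lower. Plxnc1 lost its call without Fl/+ mouse 19 or Fl/Fl mouse 27 or 39 (-0.49 to -0.44, edgeR adjusted p 0.0519 to 0.0586), and Ntn4 without Fl/Fl mouse 27 or 39 (-0.32 and -0.33, edgeR adjusted p = 0.0766 and 0.0697). No Slit and no Robo receptor was called, although Robo1 (-0.35, edgeR adjusted p = 0.0604) passed without Fl/+ mouse 19 (-0.44, edgeR adjusted p = 0.0234) and with DESeq2 (-0.36, adjusted p = 0.0369).

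**Figure D2:**
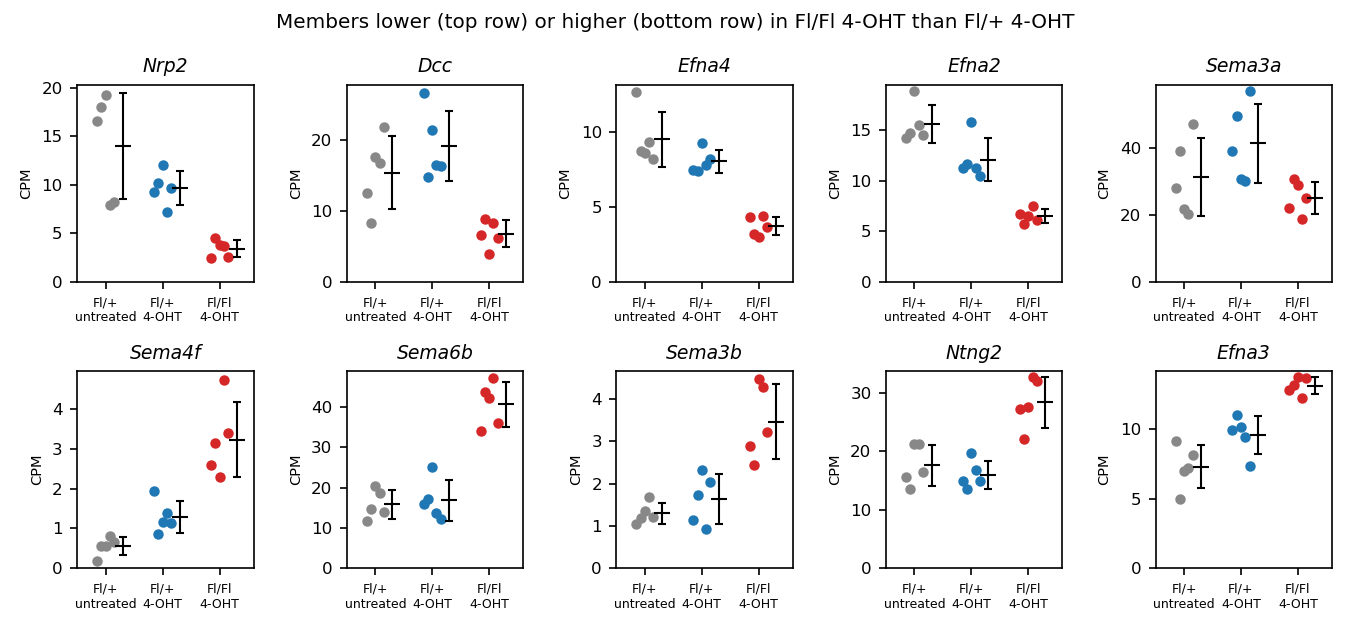
CPM of 10 members in each culture of the 3 groups, with 1 point per culture and the bar to its right giving mean ± SD (n = 5), from 0 on each axis. The top row falls and the bottom row rises in Fl/Fl against Fl/+ cultures given 4-OHT, and Sema3a is the panel of these in which the 2 groups overlap.

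A pair of neuron markers fell in the same comparison. Of 10 in the list 2 were called (20%, against 31.7% of all genes), both lower in Fl/Fl than in Fl/+ with 4-OHT, Dcx (44.5 to 7.74 CPM) and Tubb3 (27 to 13.1 CPM). The summed level of the list was 972 to 1170 CPM in Fl/+ and 760 to 913 in Fl/Fl, and none of its genes was at 3 counts or fewer throughout a group. Of the 10 neural stem cell markers 4 were lower (Hes5, Prom1, Fabp7 and Sox2). In such bulk samples fewer cells of a type and less RNA per cell cannot be told apart, and the part of these markers in the falls of Nrp2, Dcc and the ephrins was not tested.

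The second comparison, Fl/+ cultures with 4-OHT against untreated Fl/+ cultures of the same mice, asks what 4-OHT with its solvent, active Cre and any loss of 1 allele changed. In a fit that left the pairing of cultures out, of 65 members tested 11 were higher and 2 lower. Of all 14821 genes 13.8% were called, 7.34% higher and 6.45% lower. Values of this comparison come from that fit unless another is named. The members' share was 20%. Scaled by library size alone, 12 members were higher and 2 lower, and 1396 of 2108 calls over all genes were rises in place of 1088 of 2044. In 14 members the groups did not overlap, against 12.0% of all genes tested. The members' median log2 fold change was 0.19, against -0.01 over all genes. With the mouse number as a block, which fits the pairs of cultures from 1 mouse, 24 members were called (17 higher, 7 lower) and 25.7% of all genes. All 13 remained among the 24. Without mouse 36 in both groups 11 members were called (10 higher, 1 lower) and 10.8% of all genes, and 10 of the 11 were among the 13. In that fit 6 ligands were higher and none lower, and 4 receptors were higher and 1 lower. The 6 ligands called were all higher, and of the 7 receptors called 5 were higher and 2 lower.

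The largest rises were in receptors, Unc5b and Epha2. Unc5b, a repulsive and cell-death-linked netrin receptor, was at 13.7, 14.2, 8.85, 8.73 and 9.13 CPM untreated and at 114, 186, 137, 87.2 and 61.5 in the same mice with 4-OHT. It rose in 5 of 5 mice, by 3.42 on the log2 scale (SE 0.296, edgeR adjusted p = 0.000172), a fold of 10.7. In Fl/Fl cultures with 4-OHT it was at 50.4, 95.9, 74.2, 108 and 54.7 CPM, which overlapped the Fl/+ cultures given 4-OHT (log2 fold change -0.6, edgeR adjusted p = 0.139). Per kb of exon Unc5b thereby went from 1.75 ± 0.443 CPM to 18.7 ± 7.66, beside Neo1 at 26 ± 2.68 in the treated cultures.

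Both Eph receptor branches held a strong rise. Epha2 was at 4.16, 2.86, 3.08, 6.12 and 5.23 CPM untreated and at 25.7, 20.6, 24.5, 24 and 17.5 with 4-OHT, a rise of 2.39 (SE 0.224, edgeR adjusted p = 0.000231) in 5 of 5 mice. Ephb2 was at 60.3, 27.5, 64.1, 56.3 and 73.7 CPM untreated and at 196 to 262 with 4-OHT, a rise of 2.05 (SE 0.218, edgeR adjusted p = 0.000398) in 5 of 5 mice. The Fl/Fl cultures held 24.5 to 34.3 CPM of Epha2 and 224 to 346 CPM of Ephb2. Neither differed between Fl/Fl and Fl/+ with 4-OHT beyond the threshold (edgeR adjusted p = 0.129 and 0.101).

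The other Eph receptors moved less. Ephb4 rose by 0.39 (SE 0.106, edgeR adjusted p = 0.033), a call lost in 9 of 19 alternatives, among them the fits without the untreated culture of mouse 24, 26 or 35 or the treated culture of mouse 19, 24, 35 or 36 (0.35 to 0.41, edgeR adjusted p 0.0547 to 0.0752). Ephb3 was lower in 5 of 5 mice (-0.58, SE 0.194) but missed the threshold (edgeR adjusted p = 0.0714), and passed it with the mouse as a block (-0.55, edgeR adjusted p = 0.00811) and without the untreated culture of mouse 35 or 36 or the treated culture of mouse 26 (-0.68 to -0.67, edgeR adjusted p 0.038 to 0.0485). Ephb3 also passed with sex as a covariate (-0.57, edgeR adjusted p = 0.00677), in the fit of all 15 libraries (-0.58, edgeR adjusted p = 0.0289) and with DESeq2 (-0.58, adjusted p = 0.0377). No ephrin was called without the block. With it Efna2 was lower (-0.37, edgeR adjusted p = 0.0287) and so was Epha5 (-0.26, edgeR adjusted p = 0.0285), and without the treated culture of mouse 26 Efna2 also passed (-0.46, edgeR adjusted p = 0.0406). Epha5 also passed with sex as a covariate (-0.27, edgeR adjusted p = 0.0466). Epha4 was lower in 5 of 5 mice without overlap between the groups (-0.44, SE 0.139) but missed the threshold (edgeR adjusted p = 0.0592). Epha4 was not followed across the alternatives.

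Of the 5 netrins followed 2 rose (40% called, against 13.8% of all genes), a share that rests on few genes. Ntn1, the classical netrin, was at 273, 314, 308, 255 and 210 CPM untreated and at 366, 604, 468, 397 and 350 with 4-OHT, a rise of 0.69 (SE 0.163, edgeR adjusted p = 0.019) in 5 of 5 mice. Ntng1 rose from 3.07 ± 0.395 to 6.77 ± 1.63 CPM (1.14, SE 0.202, edgeR adjusted p = 0.00466), again in 5 of 5 mice. Dcc was not called (0.31, edgeR adjusted p = 0.438) and was higher in 3 of 5 mice.

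Of 19 semaphorins tested 4 rose and none fell (21.1% called, against 13.8% of all genes). Sema7a went from 7.71, 6.8, 8.57, 5.46 and 6.74 CPM to 23.9, 11.5, 14.7, 14.1 and 15.2 (1.17, SE 0.203, edgeR adjusted p = 0.00424). Sema3e, the secreted ligand of Plxnd1, went from 0.579, 0.732, 0.944, 0.231 and 0.479 CPM to 1.86, 2.37, 1.42, 2.01 and 3.24 (1.87, SE 0.348, edgeR adjusted p = 0.00587). Its receptor Plxnd1 rose from 36.1 ± 9.17 to 63 ± 10.5 CPM (0.81, SE 0.184, edgeR adjusted p = 0.0154). Sema3f (2.33) and Sema4f (1.22), with a mean below 1 CPM and therefore outside the rule for named genes, were the other rises. The call of Sema4f was lost without the untreated culture of mouse 19, 24 or 26 or the treated culture of mouse 19, 26, 35 or 36 (0.99 to 1.27, edgeR adjusted p 0.0523 to 0.109). Each of these 5 genes was higher in 5 of 5 mice.

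The falls were in a Slit receptor and a plexin. Robo2 was at 53.8, 64.4, 55.9, 68.2 and 79.9 CPM untreated and at 33.8, 41.5, 31, 36.4 and 41.4 with 4-OHT, lower in 5 of 5 mice and without overlap (-0.81, SE 0.127, edgeR adjusted p = 0.00257). Plxnc1, the receptor for Sema7a, fell by 0.5 (SE 0.121, edgeR adjusted p = 0.0206) in 4 of 5 mice, from 60.1 ± 7.93 to 42.5 ± 5.93 CPM, a call lost without the treated culture of mouse 24 or 35 (-0.46 and -0.43, edgeR adjusted p = 0.0554 and 0.0578). Robo1, in the same family as Robo2, was at -0.04 (SE 0.158, edgeR adjusted p = 0.893). Slit1, higher in 5 of 5 mice, missed the threshold (0.67, edgeR adjusted p = 0.105), as did Sema3a (0.41, edgeR adjusted p = 0.328). Both passed with the mouse as a block (Slit1 0.7, edgeR adjusted p = 0.0144, and Sema3a 0.44, edgeR adjusted p = 0.00581), and Slit1 also passed without the untreated culture of mouse 35 (0.89, edgeR adjusted p = 0.0328).

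**Figure D3:**
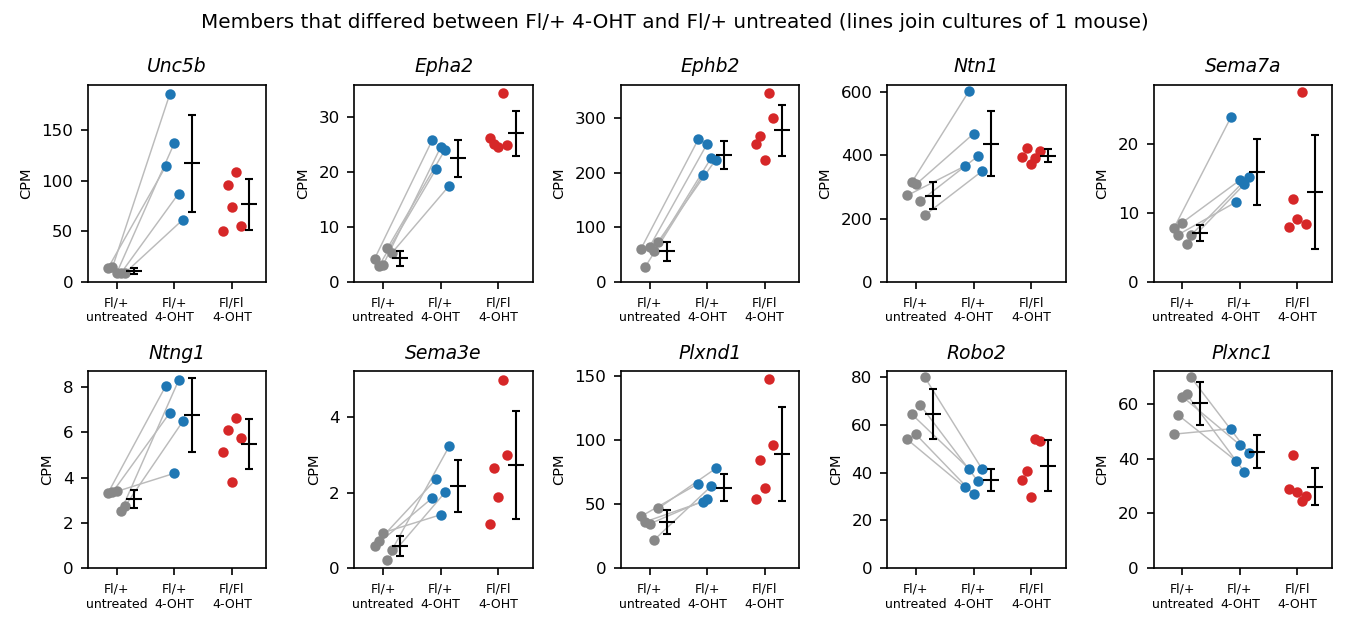
CPM of 10 members called between Fl/+ cultures with and without 4-OHT, with 1 point per culture, grey lines joining the 2 cultures of a mouse, and bars giving mean ± SD (n = 5), from 0 on each axis. Unc5b rises from at most 14.2 to at least 61.5 CPM, and Robo2 falls in all 5 mice.

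Oligodendrocyte lineage markers moved with this comparison. Of 10 in the list, 6 (60%, against 13.8% of all genes) were higher with 4-OHT (Sox10, Pdgfra, Cspg4, Mbp, Mag and Mog) and none lower, Sox10 from 25.1 to 96.4 CPM, while the summed level of the list was 3460 to 4510 CPM untreated and 3370 to 4660 with 4-OHT. Mog was at 3 counts or fewer in every untreated culture. Of 7 astrocyte markers 4 were lower and none higher, and of the 10 neural stem cell markers 4 were lower and 2 higher. Of 5 pericyte and mesenchymal markers tested 1 was higher, Cspg4, which is also on the oligodendrocyte list. The part of these markers in the rises of Unc5b, Epha2 and Ephb2 was not tested.

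The first 2 comparisons share the Fl/+ cultures given 4-OHT, so their values are set side by side without a test between them. Sema4f was higher in both (1.33 and 1.22) and Plxnc1 lower in both (-0.5 and -0.5). Ephb4 was lower in Fl/Fl (-0.39) and higher with 4-OHT (0.39), and stood at 15.9 ± 1.82 CPM untreated, 20.7 ± 0.982 in Fl/+ and 15.7 ± 2.09 in Fl/Fl with 4-OHT. Nrp2, with -1.49 in the first, was at -0.53 in the second (edgeR adjusted p = 0.213), and Unc5b, with 3.42 in the second, was at -0.6 in the first.

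**Figure D4:**
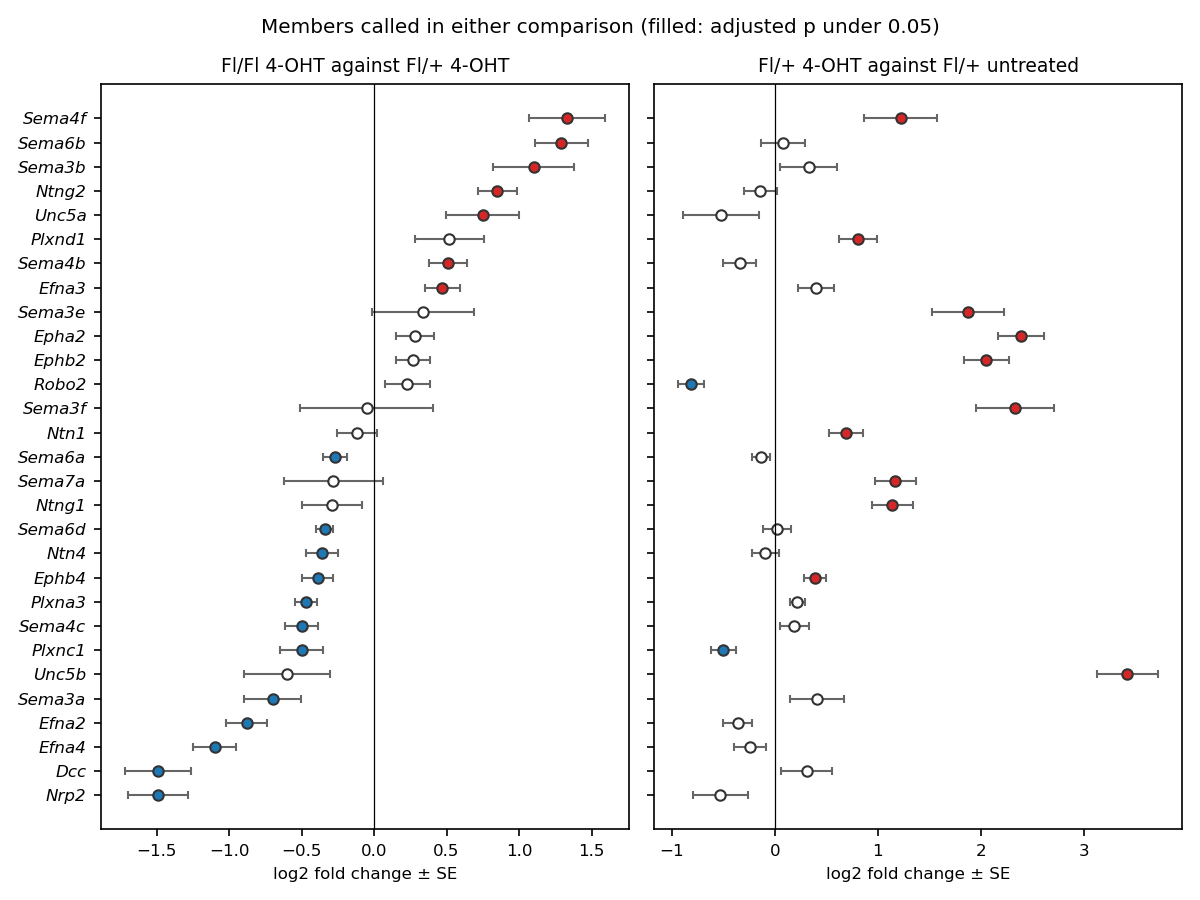
Log2 fold change ± SE of every member called in either of the first 2 comparisons, with filled points at an adjusted p under 0.05 (edgeR quasi-likelihood test). On the left Nrp2 and Dcc lie lowest at -1.49 and Sema4f highest at 1.33, and on the right Unc5b lies highest at 3.42.

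The third comparison, Fl/Fl cultures with 4-OHT against untreated Fl/+ cultures, joins genotype and treatment. Of 66 members tested 17 were higher and 14 lower (47.0%), where 30.7% of all 15032 genes were called, 15.7% higher and 15.1% lower. The median log2 fold change was 0.2 over the members and 0 over all genes. Scaled by library size alone, 19 members were higher and 10 lower, and 3150 of 4753 calls over all genes were rises in place of 2357 of 4620. In 24 members the groups did not overlap, against 23.1% of all genes tested. Without Fl/Fl mice 29 and 39, 21 members were called, 15 higher and 6 lower, and 18.4% of all genes.

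Among members with a mean of at least 1 CPM the largest rises were Unc5b (2.82, SE 0.248, edgeR adjusted p = 5.68e-05), Epha2 (2.67, SE 0.22, edgeR adjusted p = 4.21e-05), Sema4f (2.55, SE 0.35, edgeR adjusted p = 0.000514), Ephb2 (2.31, SE 0.231, edgeR adjusted p = 0.000101) and Sema3e (2.2, SE 0.434, edgeR adjusted p = 0.00338). Sema4d, a ligand of B plexins, also rose, by 1.69 (SE 0.414, edgeR adjusted p = 0.0103) and by 1.06 without Fl/Fl mouse 37 (edgeR adjusted p = 0.00435).

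Among the largest falls were Nrp2 (-2.03, SE 0.303, edgeR adjusted p = 0.000808), Efna4 (-1.34, SE 0.18, edgeR adjusted p = 0.000448), Efna2 (-1.25, SE 0.134, edgeR adjusted p = 0.000143), Dcc (-1.18, SE 0.275, edgeR adjusted p = 0.00804), Plxnc1 (-1, SE 0.148, edgeR adjusted p = 0.000762) and Ephb3 (-0.83, SE 0.169, edgeR adjusted p = 0.00401). Dcc lost its call without Fl/Fl mice 29 and 39 (-0.96, edgeR adjusted p = 0.0539). Efna2 was at 14.3 to 18.9 CPM untreated, 10.5 to 15.8 in Fl/+ with 4-OHT and 5.74 to 7.5 in Fl/Fl with 4-OHT. Of the members called in the first comparison, those not called in the third were Sema3a (-0.3, edgeR adjusted p = 0.361), Sema4b (0.17, 0.488), Unc5a (0.23, 0.66), Sema4c (-0.32, 0.122), Ephb4 (-0.01, 0.978) and Sema6d (-0.32, 0.0918). Sema6d passed in 3 of 18 alternatives. The other members called in the first were called in the same direction in the third.

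Markers of several cell types moved with the third comparison, where 30.7% of all genes were called. Of 10 oligodendrocyte lineage markers 6 were higher and 1 lower (summed 3460 to 4510 CPM untreated, 3590 to 5400 in Fl/Fl), and both ependymal markers tested, Foxj1 and Ccdc153, were higher (summed 27.2 to 61.6 and 68.7 to 95.8 CPM). Of 10 neuron markers 5 were lower and none higher (943 to 1260 and 760 to 913 CPM), of 7 astrocyte markers 4 were lower (3420 to 4490 and 3060 to 4750 CPM), and of 10 neural stem cell markers 6 were lower and 1 higher (9270 to 13300 and 7710 to 14100 CPM). Their part in the members' differences was not tested.

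Receptors pass the signal to small GTPases and the actin cytoskeleton, and 44 such effectors were followed. Of the 43 tested between Fl/Fl and Fl/+ with 4-OHT, 15 were lower and 3 higher (median log2 fold change -0.12), a share of 41.9% called where 31.7% of all genes were called, 16.8% higher and 15.0% lower. Without the 3 libraries that stood apart 10 were lower and 1 higher, where 15.5% of all genes were called. Srgap1, a GTPase-activating protein that Robo receptors bind, fell from 50.4 to 28.6 CPM (-0.8, SE 0.137, edgeR adjusted p = 0.00163). Evl, an actin regulator of the Ena/VASP family, fell from 90.2 to 52.5 CPM (-0.77, SE 0.137, edgeR adjusted p = 0.00207), and the kinase Gsk3b from 212 to 144 CPM (-0.54, SE 0.0539, edgeR adjusted p = 0.000108). The rises were the kinases Cdk5 (0.53, edgeR adjusted p = 0.00339) and Limk2 (0.49, edgeR adjusted p = 0.00276) and the ephexin Ngef (0.5, edgeR adjusted p = 0.036).

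With 4-OHT in Fl/+ cultures 4 effectors were higher and 3 lower (median 0.06), a share of 16.3% near the 13.8% of all genes, and the same counts without mouse 36, against 10.8%. With the mouse as a block 8 were higher and 6 lower, where 25.7% of all genes were called. The kinase Pak1 rose from 50.3 to 98.6 CPM (0.97, SE 0.179, edgeR adjusted p = 0.00552), and Vav3 (0.56) and Arhgef12 (0.48) also rose. Mical1, the redox enzyme that plexins bind, fell from 94.9 to 49.1 CPM (-0.95, SE 0.17, edgeR adjusted p = 0.00501), and Cdk5 (-0.4) and Rac1 (-0.31) were lower too.

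**Figure D5:**
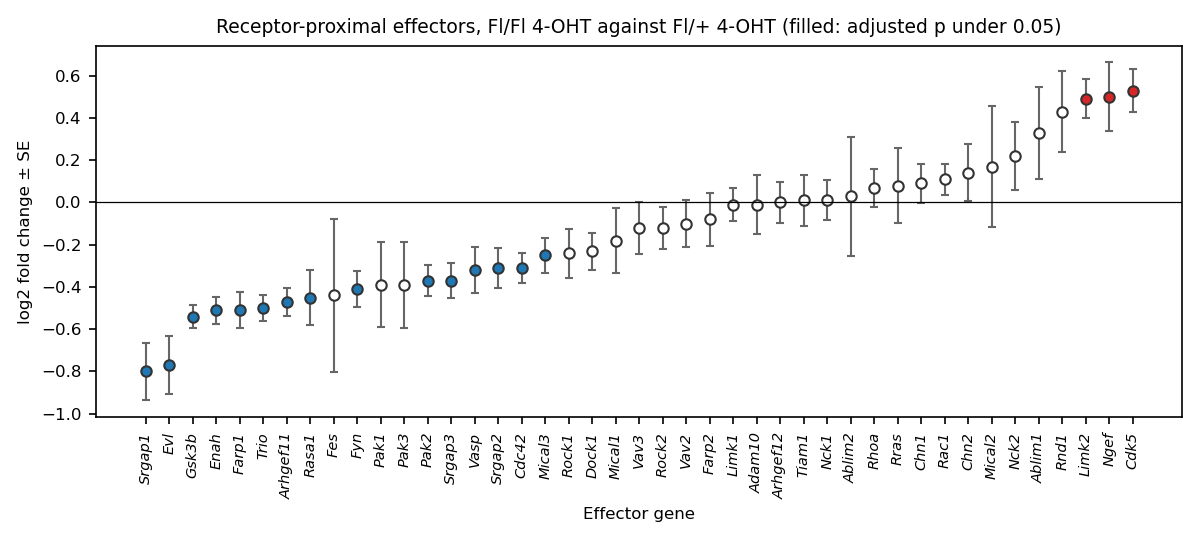
Log2 fold change ± SE of the 43 effector genes tested between Fl/Fl and Fl/+ cultures given 4-OHT, ordered by value, with filled points at an adjusted p under 0.05 (edgeR quasi-likelihood test). The 15 filled points on the left are lower, led by Srgap1 at -0.8, and the 3 on the right are higher, led by Cdk5 at 0.53.

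A further 16 guidance cues and cofactors outside the families held 4 falls and no rise between Fl/Fl and Fl/+ with 4-OHT (median -0.16), a share of 25% where 31.7% of all genes were called, and 3 falls without the 3 libraries that stood apart, where 15.5% of all genes were called. Flrt3, which modulates Robo signalling, went from 23.6 to 14.5 CPM (-0.68, SE 0.151, edgeR adjusted p = 0.00608), the heparan sulphate proteoglycan Sdc3 from 1520 to 1030 CPM (-0.54, SE 0.0958, edgeR adjusted p = 0.00193), and Rgma, a ligand of Neo1, from 307 to 217 CPM (-0.49, SE 0.152, edgeR adjusted p = 0.0311). The other was Gpc1. With 4-OHT in Fl/+ cultures 3 fell and none rose (median -0.39), a share of 18.8% against 13.8% of all genes, 2 fell without mouse 36, against 10.8%, and with the mouse as a block 6 fell and 1 rose, against 25.7% of all genes. Lrrc4c, the netrin-G1 ligand, fell from 73.5 to 38.7 CPM (-0.92, SE 0.114, edgeR adjusted p = 0.000883) while its partner Ntng1 rose. Flrt2 (-0.52, edgeR adjusted p = 0.0204) and Gpc1 (-0.45, edgeR adjusted p = 0.0358) were the other falls.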

How the data were processed

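Total RNA of 15 primary aNSC cultures was made into libraries with a stranded mRNA kit and sequenced as single-end reads. The deposited table holds unnormalized read counts for each gene: per the labels and the methods of the study, reads were mapped to GRCm38 with STAR 2.5.4b, and the authors assigned uniquely mapped reads to Ensembl genes by strand with featureCounts 1.5.0. Reads that map to more than 1 place are not counted. Gene names, positions and exon lengths came from GENCODE M21 (GRCm38), which held 53706 of the 53801 IDs, and 95 did not match. Ntn3 was not found under its annotated ID and was not analysed here.

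Counts were tested with edgeR 4.0.16 (R 4.3.3, quasi-likelihood F test, filterByExpr with a minimum count of 10, TMM scaling), and p-values were adjusted by Benjamini-Hochberg over all genes tested in a comparison. The SE was taken as the log2 fold change over the root of F. Each comparison used its 10 libraries. Where the labels do not say that cultures came from separate preparations, p-values measure the spread between these samples. The alternatives were DESeq2 1.42.0, other scalings and filters, 1 fit of all libraries, sex as a covariate, leaving out each library, and the mouse number as a block. The sex covariate used the labels, so Fl/Fl mouse 39 entered as female, against its Xist and Y-linked levels. Mouse numbers are shared between the untreated and treated Fl/+ cultures, which came from the same animals. Deviations from the group means of same-mouse cultures correlated at 0.204 to 0.586 (5 pairs), those of different mice at -0.489 to 0.317 (20 pairs), over 15435 genes. The fitting steps were tested on simulated data.

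The genes named are the called members of largest change with a mean of at least 1 CPM (12 rises and 12 falls in the first comparison, 10 and 10 in the second, 6 and 6 in the third), the most abundant member of each family per kb, Trrap, and the 3 largest changes each way of the effectors and of the cofactors. The members and the gene lists were chosen with earlier results of these data known. Counts of 3 or fewer were read as not detected. Unc50, Unc5cl, the Slitrk genes and Plxna4 antisense genes were left out as no guidance ligands or receptors.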

Additional observations from a re-analysis of the deposited data

Results flagged for a closer look

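In each named member and group the highest or lowest of 5 cultures was set against the other 4, and marked where its gap took over 0.71 of the group's range. Of 114 groups 11 were marked, each for its highest culture. Chance marks about 1 in 20 where values are normally distributed, which CPM need not be. None was taken out of the reported fits for its mark, and fits of Sema4d and Sema7a without Fl/Fl mouse 37 are given above.

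In the Fl/Fl cultures mouse 37 was highest for Sema4d (51.3 CPM, the others 10.7 to 16.6), Sema7a (27.4, the others 7.98 to 12) and Epha2 (34.3, the others 24.5 to 26.1). Mouse 28 was highest for Plxnc1 (41.4, the others 24.4 to 29) and mouse 27 for Slit1 (14.3, the others 7.89 to 9.48).

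In the untreated Fl/+ cultures mouse 19 was highest for Efna4 (12.7, the others 8.21 to 9.31) and mouse 26 for Efna2 (18.9, the others 14.3 to 15.5) and Sema4d (9.62, the others 5.2 to 6.19). With 4-OHT mouse 26 was highest for Efna2 (15.8, the others 10.5 to 11.7) and Efnb1 (48.4, the others 37.3 to 40.4), and mouse 24 for Ntn4 (105, the others 69.3 to 78.9). Mouse 26 was thus highest for Efna2 both without and with 4-OHT.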

How the results depend on the processing

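Between Fl/Fl and Fl/+ with 4-OHT the 19 members called became 16 to 20 when 1 library was left out (24.8% to 31.0% of all genes called), 18 to 23 under other tests, scalings, filters and covariates, and 10 without the 3 libraries that stood apart, where fewer samples were fitted and the share over all genes also fell to 15.5%. Sema4f, Sema6b, Ntng2, Nrp2, Dcc, Efna4, Efna2, Sema4c, Plxna3 and Sema6d kept their call in all 18 alternatives. With 4-OHT in Fl/+ the 13 members called became 10 to 18 when 1 library was left out (8.46% to 16.7% of all genes), 22 with sex as a covariate (19.8%) and 24 with the mouse number as a block (25.7%), against 13.8% of all genes in the reported fit. Among the members followed across the alternatives, the block turned Efna2, Sema3a, Ephb3, Slit1 and Epha5 into calls and changed no other call. Its further new calls were in members not followed in this way. Unc5b, Epha2, Ephb2, Sema3e, Sema7a, Ntng1, Plxnd1, Ntn1 and Robo2 kept their call in every alternative in which they were tested (Sema3e was not tested with at least 10 counts in every library). Between Fl/Fl with 4-OHT and untreated Fl/+ the 31 members called became 21 to 36. No called member with a mean of at least 1 CPM that the report names changed direction in any alternative; Sema3f was not followed across them. Per kb of the longest transcript in place of all exons the same gene led each family, with Sema3a at 5.26 in place of 2.25. Of the 5 members with too few counts for the filter, Epha1 was called without it in both comparisons with untreated cultures, on at most 7 counts a library.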

Other observations

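Several members lie within 100 kb of each other in the genome (GENCODE M21, GRCm38), with or without other genes between them, and did not always move alike. Efna1, Efna3 and Efna4 share a strand of chromosome 3, with 32.8 kb between Efna1 and Efna3 and 10.4 kb between Efna3 and Efna4. Between Fl/Fl and Fl/+ with 4-OHT Efna4 was lower (log2 fold change -1.1) and Efna3 higher (0.47), and Efna1 was at 1.94 ± 0.724 and 1.78 ± 1.09 CPM. On chromosome 9 Sema3b and Sema3f lie 72.3 kb apart. Sema3b was higher in Fl/Fl than in Fl/+ with 4-OHT (1.1) and not called with 4-OHT (0.33), while Sema3f was higher with 4-OHT (2.33). Ephb2, at 56.4 ± 17.4 CPM in untreated cultures, lies 93.4 kb from Epha8, which did not exceed 3 counts in any library. These pairs were chosen after their values were seen.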
